A study of Mus musculus with 4 samples.

Results

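The genes that encode subunits of chromatin remodeling complexes were examined for N6-methyladenosine (m6A) in mouse c-Kit+ foetal liver cells. The members were all protein-coding genes of the GENCODE M21 annotation whose symbol begins with Smarc, Arid, Ino80 or Baz, or consists of Chd and a digit, whatever their peaks. This gave 42 of 21951 protein-coding genes. They comprised 12 genes of the BAF and PBAF complexes, 6 of ISWI, 10 of the CHD family (Chd1l, which the symbol rule takes in, among them), 5 of INO80, 2 other SNF2-type ATPases and 7 other Arid genes. Some of these Arid genes encode DNA-binding factors and not remodeler subunits.

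Chromatin remodelers use ATP to slide, evict or exchange nucleosomes, and so set which DNA is open to the transcription machinery. BAF and PBAF are built around the Smarca4 or Smarca2 ATPase, ISWI complexes pair a Smarca ATPase with a Baz protein, CHD proteins carry chromodomains beside the ATPase, and INO80 also acts on the histone variant H2A.Z. Blood stem and progenitor cells depend on several of them. m6A is deposited on mRNA at the A before the C of DRACH motifs (the letter D stands for any base but C, R for a purine and H for any base but G) and is read by proteins such as YTHDF2, which speeds the decay of the mRNA.

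m6A meRIP-seq sequences RNA fragments that an anti-m6A antibody has pulled down, and the fragments pile up into peaks over methylated sites. The series holds 2 immunoprecipitation (IP) samples and 2 input samples of Kit+ cells that were enriched with magnetic beads from foetal livers on a C57BL/6 background. Per the study's methods the cells were Ythdf2CTL, that is Ythdf2 fl/fl without Cre, an allele that encodes a GFP-YTHDF2 fusion, and the replicates were biological; the age of the embryos and any pooling are not given in the sources used here for these samples. The labels give total RNA for the IP and polyA RNA for the input. There is no second genotype or treatment, so all values describe this 1 group, as a peak list for each IP replicate. The lists held 15635 and 14872 peaks, with a median of 57 IP reads at the summit in each, and library totals are unknown. Of 10 genes that mark blood stem and progenitor cells, 7 had a peak in both replicates, among them Gata2, Runx1 and Cd34, and Kit, Gata1 and Myb had none. Of 5 hepatocyte genes Apoa1 had a peak in both replicates, and of 3 lymphocyte genes Cd79a did. A peak needs both the mark and enough RNA, so a gene without a peak may be unmethylated, weakly expressed or silent, and these cannot be told apart here.

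Sequences under the strongest member peaks are shown first. For each group of subunits they are taken from the member whose peak had the highest mean significance, and further from the 5 peak pairs of highest mean fold enrichment among those with a background of at least 5 control reads in each replicate. Each window is centred on the GGAC nearest the summits, or on the nearest DRACH where no GGAC lay within 50 nt. All read 5′ to 3′ along the mRNA, coordinates are those of GRCm38, and capitals mark GGAC with the base that follows it, or else the DRACH 5-mer. Windows in untranslated regions are kept to 29 bases.
Smarcb1, exon 1, chr10:75921529-75921557, minus strand: ggagcccagtagTGACAcgagcgctcgcc
Baz1b, exon 1, chr5:135187343-135187371, plus strand: ggagaggagtcgTGACTggcggccgccgc
Chd2, exon 39, chr7:73429287-73429315, minus strand: tgaccagggcaaGGACCtgctggacagtg
Arid3a, exon 2, chr10:79930984-79931044, plus strand: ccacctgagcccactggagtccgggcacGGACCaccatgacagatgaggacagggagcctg
Smarcal1, exon 2, chr1:72586183-72586243, plus strand: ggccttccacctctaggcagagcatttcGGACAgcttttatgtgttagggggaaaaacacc
Chd8, exon 2, chr14:52237490-52237550, minus strand: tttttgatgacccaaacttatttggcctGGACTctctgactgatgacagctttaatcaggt
Chd7, exon 38, chr4:8866409-8866469, plus strand: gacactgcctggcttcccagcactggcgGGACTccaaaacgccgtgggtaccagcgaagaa
Chd9, exon 40, chr8:91051851-91051911, plus strand: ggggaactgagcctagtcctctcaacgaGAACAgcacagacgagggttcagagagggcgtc
Ino80d, exon 12, summit of replicate 1, chr1:63058308-63058368, minus strand: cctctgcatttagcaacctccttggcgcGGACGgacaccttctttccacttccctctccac
Ino80d, exon 12, summit of replicate 2, chr1:63058899-63058959, minus strand: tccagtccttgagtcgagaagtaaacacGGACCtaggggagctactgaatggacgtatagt
Of these windows, those of Smarcb1 and Baz1b lie in the 5′ UTR, that of Chd2 lies in the 3′ UTR, and the others lie in coding sequence. The Ino80d peaks overlapped each other, but their summits were 577 nt apart, so a window is given for each. The GGACG of the first Ino80d window holds GGAC but is no DRACH. It lay 49 nt from the summit, and the nearest DRACH lay at −18 nt (negative is upstream). At Chd7 the GGAC lay at −33 and −35 nt from the summits of replicates 1 and 2, and the nearest DRACH at 8 and 6 nt. The windows of Smarcb1, Chd7 and Ino80d do not hold the summits, and those of Baz1b and Chd2 do not hold the summit of replicate 1.

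A peak summit lay in an exon of 29 of the 42 remodeler genes in replicate 1 (69.0%, exact Clopper-Pearson 95% interval 52.9 to 82.4%) and of 28 in replicate 2 (66.7%, interval 50.5 to 80.4%). Over all protein-coding genes the shares were 34.4% and 33.5%. In both replicates 27 members had a summit, against 30.9% of all genes, and in at least 1 replicate 30 members did, against 37.1%. Of the 27, 25 had counted peaks that overlapped between replicates, and the other 2, Baz1a and Chd4, did not. The intervals cover counting error only, and the members were not tested against other genes. The members were long genes, with a median exonic length of 6429.5 nt against 2788 nt over all protein-coding genes and 3735.5 nt over the 6780 genes with a summit in both replicates. Among genes of 8 kb of exon or more, 11 of 12 members and 47.0% of all genes had a summit in both replicates. Between 6 and 8 kb it was 8 of 13 members and 50.4%, between 4 and 6 kb 3 of 6 and 44.5%, between 2 and 4 kb 4 of 7 and 33.1%, and below 2 kb 1 of 4 and 14.5%. The members' share was thus above that of all genes in each class. The gap was smaller than the pooled gap in every class below 8 kb and larger in the class of 8 kb or more. Each class held few members, and the part of length was not tested.

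**Figure D1:**
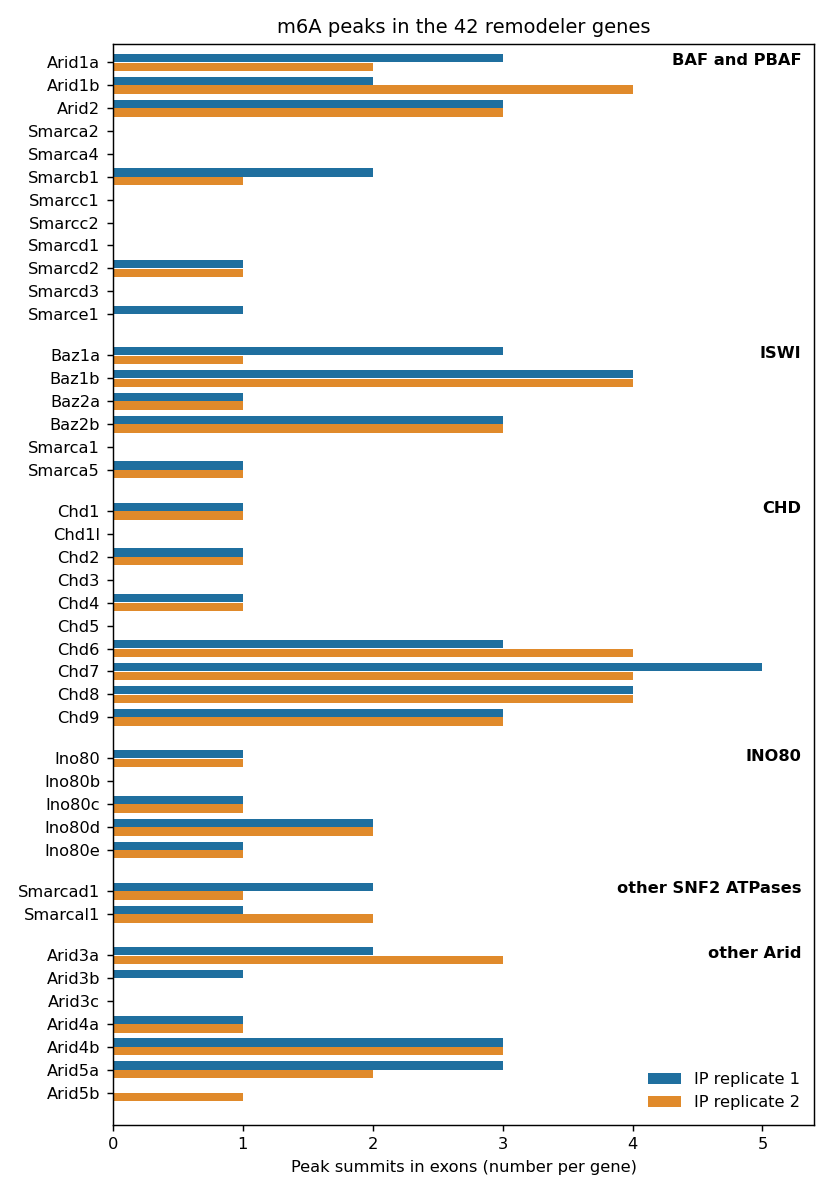
Number of peak summits in exons (x axis) for each of the 42 remodeler genes (y axis), with a bar for each IP replicate and the genes grouped by complex. Chd7 had the most summed over both replicates, 5 and 4, while Arid1b, Baz1b, Chd6 and Chd8 also had 4 in replicate 2, and 12 genes had none in either replicate.

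BAF and PBAF divided by kind of subunit. All 3 ARID subunits, which are the large DNA-binding subunits that tell BAF from PBAF, had a summit in both replicates. Of the 9 Smarc subunits, 2 did (Smarcb1 and Smarcd2), 1 had a summit in replicate 1 alone (Smarce1) and 6 had none. Those 6 were both alternative ATPases, Smarca2 and Smarca4, the paired scaffold subunits Smarcc1 and Smarcc2, and Smarcd1 and Smarcd3. Exonic lengths of these 6 ran from 1944 nt in Smarcd3 to 7302 nt in Smarca2. The 3 ARID genes were longer than all 9 Smarc genes, at 8565, 11460 and 8776 nt in Arid1a, Arid1b and Arid2. Kind of subunit and exonic length thus cannot be told apart here. Of all protein-coding genes, 30.9% had a summit in both replicates.

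The Smarcb1 peak had the highest mean fold enrichment of the members' peak pairs and the highest fold of replicate 2, and in replicate 1 peaks of Baz1b, Chd9, Chd2 and Arid5a were higher. Smarcb1 is a core subunit of BAF and a tumor suppressor. In replicate 1 its peak stood 7.54-fold above background, with 79 IP reads over 11 control reads, and in replicate 2 it stood 16.8-fold above background, with 105 IP reads over 5. The log2 ratio between the replicates was 1.16 for this value, though the summits were 4 nt apart, in exon 1 within 200 nt of the start codon (GRCm38, peak of replicate 1 at chr10:75921430-75921690). Replicate 1 also had a weak Smarcb1 peak of 1.74-fold at the stop codon, which replicate 2 lacked. Smarcd2, whose product links the complex to transcription factors, was likewise marked in exon 1 near the start codon, at 5.11-fold and 5.15-fold with summits 8 nt apart. The Smarce1 peak of replicate 1, in the last exon of this HMG-box subunit gene, was 2.40-fold with 148 IP reads over 70 control reads.

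The ARID subunits carried several peaks each, and those found in both replicates lay far from the start codon. Arid2, the PBAF subunit, had 3 peaks in each replicate, and all 3 matched between replicates. Of them, 2 lay in exon 15, of 2843 nt, at 2.24-fold and 2.55-fold for the upstream peak and 3.82-fold and 3.47-fold for the downstream peak, and the other sat at the stop codon at 3.14-fold and 3.67-fold. Arid1a, the BAF subunit most often mutated in cancer, had 3 and 2 peaks, of which the pair in the last exon was 2.64-fold and 2.86-fold over a background of 77 and 58 control reads. Arid1b, its paralogue, had 2 and 4 peaks. In the last exon of Arid1b a peak of replicate 1 (6.25-fold, 133 IP reads) overlapped 2 peaks of replicate 2, so the same stretch was split in the second list.

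In ISWI all 4 Baz genes had a summit in both replicates, and of the 2 ATPase genes Smarca5 did and Smarca1 did not. Smarca5, the ATPase that blood progenitors need to proliferate, had a single peak in the 5′ UTR in exon 1, at 5.53-fold and 9.14-fold with 48 and 47 IP reads over 9 and 4 control reads. Baz1b, which partners Smarca5, had 4 peaks in each replicate, all of which matched. Its 5′ UTR peak was 9.85-fold and 7.48-fold, over a background of 4.2 and 6 control reads. Its other 3 peaks were weaker, at 1.70-fold and 1.60-fold and at 1.77-fold and 1.58-fold in exon 7, of 1705 nt, and at 2.50-fold and 2.20-fold at the stop codon. These weaker peaks rested on more reads: the first of them had 131 IP reads over a background of 88 in replicate 1 and 127 over 75 in replicate 2, so a low fold did not go with few reads. Baz2a, part of the nucleolar remodeling complex, had a peak in exon 3 at 2.55-fold and 2.54-fold. Baz2b had 3 peaks in each replicate, of which 1 matched, in exon 26 at 2.69-fold and 3.24-fold. Baz1a had 3 and 1 exonic summits, and no peak counted in replicate 1 overlapped the peak counted in replicate 2. Those of replicate 1 included exons 18 and 24, which no peak of replicate 2 overlapped, and that of replicate 2 lay in the 3′ UTR. The other peak of replicate 1, at 5.46-fold, overlapped a peak of replicate 2 at 6.04-fold whose summit lay in an intron. Its summit in replicate 1 also lay in an exon of the predicted gene Gm20403, and without strand in the lists it could belong to either gene.

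The CHD family split by subfamily. All 4 genes from Chd6 to Chd9 had summits in both replicates, 3 to 5 in each. Chd1 and Chd2 had a single peak each. Of Chd3, Chd4 and Chd5, the NuRD ATPases, only Chd4 had any summit in an exon. Chd7, mutated in CHARGE syndrome, had 5 and 4 peaks, of which 4 matched, and the peak at its stop codon was the pair with the highest mean −log10 q of all members. That peak was 6.51-fold and 7.19-fold, with 159 and 150 IP reads over 27 and 19 control reads, and its summits were 2 nt apart (chr4:8865586-8866763 in replicate 1). The others in both replicates lay at the start codon at 3.22-fold and 2.17-fold, further into exon 2 at 2.69-fold and 3.57-fold, and in exon 31 at 3.80-fold and 3.29-fold. Replicate 1 alone had a peak of 2.13-fold in exon 34.

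Chd8, a gene linked to autism, had 4 peaks in each replicate and all matched. The strongest lay at the start codon in exon 2, at 7.09-fold and 7.32-fold with 99 IP reads in each replicate and both summits at the same base. At the stop codon the Chd8 peak was 3.24-fold and 2.99-fold, again with both summits at the same base, and a further peak of the last exon was 2.22-fold and 2.86-fold. The peak in Chd8 exon 32 was 3.60-fold and 3.98-fold with summits 300 nt apart, and the summit of replicate 2 lay in an exon of Gm26590 too. Chd9 had 3 peaks in each replicate and all matched, at the start codon (4.17-fold and 6.91-fold, with 25 and 28 IP reads only), in exon 32 (6.47-fold and 6.24-fold) and at the stop codon (8.10-fold and 7.62-fold, 92 and 79 IP reads). Chd6 had 3 and 4 peaks. Its matched peaks were a pair of peaks in exon 31, of 1572 nt, at 4.19-fold and 8.84-fold upstream and at 4.75-fold and 4.07-fold downstream, and a peak at the stop codon at 5.14-fold and 6.03-fold.

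Chd2 differed in where its summits lay, though its peak covered the stop codon in both replicates. Its single peak, at 7.80-fold and 6.79-fold with 128 and 106 IP reads over 17.8 and 14 control reads, had its summits 343 and 369 nt past the stop codon. The Chd1 peak, 2.89-fold and 2.58-fold, lay at the stop codon. The exonic peaks of Chd4 were the weakest of all members, 1.46-fold in replicate 1 and 1.41-fold in replicate 2, and although both lay within 200 nt of the stop codon they did not overlap. Chd4 had a much stronger peak that the count by exons leaves out: at 6.47-fold and 8.66-fold, with the summits in an intron 15 and 14 nt from an exon and inside the annotated microRNA gene Mir7045. Those peaks reached into exon 2 of Chd4 in both replicates, and which RNA carried the mark cannot be read from lists without strand. Chd1l, a remodeler that poly(ADP-ribose) activates, had no summit.

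In INO80, 4 of 5 genes had a summit in both replicates and Ino80b had none. The Ino80b count turned on the use of summits, since a peak of 5.02-fold in replicate 2 had its summit 5 nt outside an Ino80b exon and overlapped the exon. Ino80d had 2 matched peaks, at 5.14-fold and 5.63-fold in exon 5, of 731 nt, and at 3.42-fold and 6.27-fold in the last exon. Ino80, the ATPase, had a peak in its last exon at 3.28-fold and 2.08-fold, with summits 350 nt apart. Ino80c had a peak at 3.75-fold and 3.35-fold in an exon that is not in the transcript chosen for it. The Ino80e peak, at 2.17-fold and 1.69-fold, lay in an exon shared with Doc2a and may belong to that gene. Of the 2 further SNF2-type ATPases, Smarcal1, which remodels stalled replication forks, had a matched peak in exon 2 at 3.30-fold and 3.16-fold with summits 4 nt apart, and Smarcad1 had a matched peak in exon 9 at 2.13-fold and 4.32-fold.

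Among the other Arid genes, 4 of 7 had summits in both replicates. Arid3a, a transcription factor of B cells and blood stem cells, was marked near the start codon in exon 2 at 5.69-fold and 7.26-fold, with 119 and 121 IP reads over 23 and 15 control reads and summits 2 nt apart. A second matched Arid3a peak lay in the 3′ UTR at 3.49-fold and 3.60-fold. Arid5a, which also encodes an RNA-binding protein, had matched peaks in the coding part of its last exon at 7.70-fold and 5.81-fold and in its 3′ UTR at 3.30-fold and 8.82-fold, the latter on 15 and 26 IP reads. Arid4a and Arid4b, paralogues found with the Sin3 corepressor, had 1 and 3 peaks in each replicate. The Arid4b peak at the stop codon was 5.91-fold and 4.83-fold with both summits at the same base. Arid3b had a peak in replicate 1 only, 2.92-fold in exon 2 with 53 IP reads over 20 control reads. Arid5b had a peak in replicate 2 only, 11.0-fold on 15 IP reads over a background of 0.391 control reads, and so its fold rests on almost no background. Arid3c had none. With Chd1l, Chd3, Chd5, Ino80b, Smarca1 and the 6 BAF subunits above, this makes the 12 members without an exonic summit.

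Many of the members with a peak had several. There were 60 summits in members' exons in replicate 1 and 57 in replicate 2, or 2.07 and 2.04 per gene with a summit, against 1.62 and 1.60 over all protein-coding genes with a summit. In replicate 1, 11 of 29 members (37.9%) had 3 peaks or more and in replicate 2 10 of 28 (35.7%), against 13.4% and 13.1% of all genes with a summit. Per kb of exon the order was the other way, with medians of 0.342 and 0.330 peaks in the members with a summit in both replicates against 0.409 and 0.402 in all such genes. Across the 42 members, exonic length and mean number of peaks had a Pearson r of 0.52 and a Spearman rho of 0.49, a description across genes that share the same libraries. The longest gene did not have the most peaks: Ino80d, with 13836 nt of exon, had 2 in each replicate, while Baz1b, with 6492 nt, had 4.

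**Figure D2:**
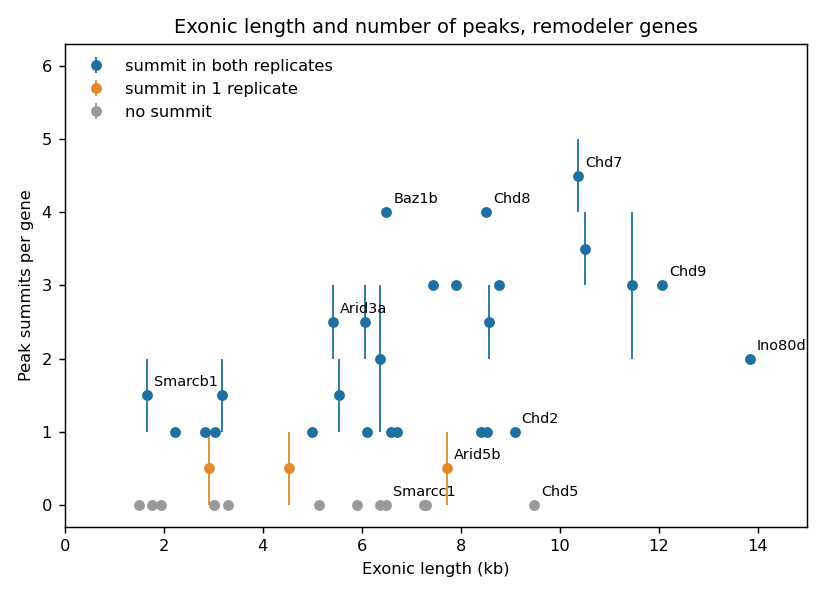
Exonic length in kb (x axis) against the number of peak summits per gene (y axis) for the 42 members. Points are the mean of the 2 IP replicates, lines span both values and colors give in how many replicates a summit was found; Chd5 had 9486 nt of exon and no peak, and Baz1b had 4 in 6492 nt.

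The positions of the members' peaks were compared between replicates. Of 60 and 57 summits, 55 and 54 could be placed on the chosen transcript of a single gene, and of these 45 (81.8%) and 44 (81.5%) lay in peaks that overlapped a peak of the other replicate. Over all protein-coding genes this share was 86.6% ± 1.52 (SD, n = 2), against 81.6% ± 0.238 (SD, n = 2) in the members. The members had 44 pairs of peaks that overlapped each other and no other peak. The median distance between paired summits was 7.5 nt, against 15 nt over the 9161 pairs of all protein-coding genes. Of the 44 member pairs, 24 had summits within 10 nt of each other and 5 had summits over 100 nt apart, up to 577 nt in Ino80d. The log2 ratio of fold enrichment between replicates had an SD of 0.46 over member pairs and 0.45 over all pairs. The values of a pair were within 2-fold of each other in 40 of 44 member pairs (90.9%) and in 95.9% of all pairs. The other 4 member pairs were in Smarcb1, Chd6, Arid5a and Smarcad1, and all were higher in replicate 2.

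**Figure D3:**
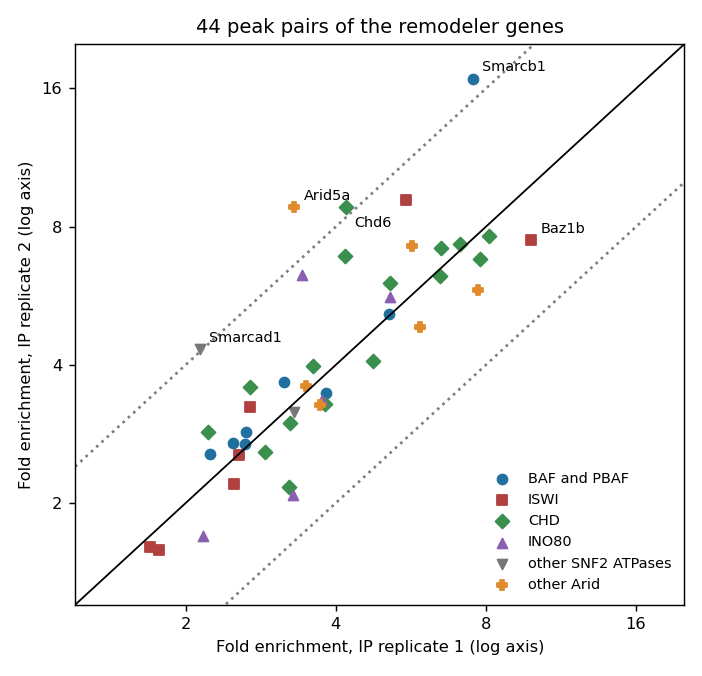
Fold enrichment of the 44 member peak pairs in IP replicate 1 (x axis) and 2 (y axis), both on log axes, by complex. The solid line marks equal values and the dotted lines a 2-fold difference; 40 pairs lie between the dotted lines and 4, in Smarcb1, Chd6, Arid5a and Smarcad1, lie above them.

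The median fold enrichment of the members' placed peaks was 3.28 in replicate 1 and 3.80 in replicate 2, against 4.10 and 4.27 over all placed summits of protein-coding genes. Median IP reads at the members' summits were 89 and 72.5, against 72 and 70. Median background was 26 and 17 control reads, against 19 and 14. The lower fold thus stood beside a higher background, whose part in it was not tested.

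The members' summits were then placed along the transcript. Summits were given to the stop or the start codon within 200 nt of it, and otherwise to the region they lay in. Coding sequence held 55.0% ± 4.48 of members' summits (SD, n = 2) against 33.9% ± 0.101 over all genes. The stop codon held 20.2% ± 2.33, with 12 of 55 and 10 of 54 summits, against 30.2% ± 0.676. The 3′ UTR held 7.36% ± 2.69 against 17.3% ± 0.247, the start codon 11.9% ± 1.45 against 15.04% ± 0.517, and the 5′ UTR 5.52% ± 2.67 against 3.52% ± 0.0122. The SD leaves out the counting error of so few summits. The exact intervals take summits as independent, though several often lay in 1 gene, so they are no test of members against other genes. Those of the members' coding share, 44.1 to 71.3% in replicate 1 and 37.8 to 65.7% in replicate 2, lay above the share of all genes. Those of the stop codon share, 11.8 to 35.0% and 9.25 to 31.4%, held the all-gene shares of 30.7% and 29.7%, and a difference there was not tested. For the 3′ UTR the interval of replicate 1, 1.14 to 15.1%, lay below the all-gene share of 17.1% and that of replicate 2, 3.08 to 20.3%, held the all-gene share of 17.5%. The transcripts differed too: last exons made up 34.1% of the length of members' transcripts, against 53.3% over all protein-coding genes, and the part of this in the shares was not tested.

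Of the members' placed summits, 29 of 55 in replicate 1 and 24 of 54 in replicate 2 were in internal exons that measured 400 nt or more, or 48.6% ± 5.86 (SD, n = 2), although they made up 11.2% of the length of the members' transcripts. Over all genes they held 20.6% ± 0.0773 of summits and 6.55% of the length. The members' 854 shorter internal exons made up 49.6% of the length and held 1 summit in each replicate, both in exon 9 of Smarcad1, which at 389 nt was just under the limit. Counted by exon, 19 of 33 long internal exons (57.6%) and 1 of 854 short ones (0.117%) had a summit in both replicates. Among all protein-coding genes it was 36.3% and 0.223%, so the contrast of long and short exons was present in genes at large too. Within genes with a summit in both replicates the order of members and all genes was the other way. There it was 65.5% of members' long internal exons against 69.9% over all such genes, and 0.177% against 0.625% of short ones. A summit can fall beside a short exon when reads are extended along the genome. When any overlap of a peak was counted, 3 of the 854 short exons (0.351%) were touched in both replicates, in Baz2a, Chd4 and Smarcad1. This count sees called peaks only, and the part of read extension was not tested.

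**Figure D4:**
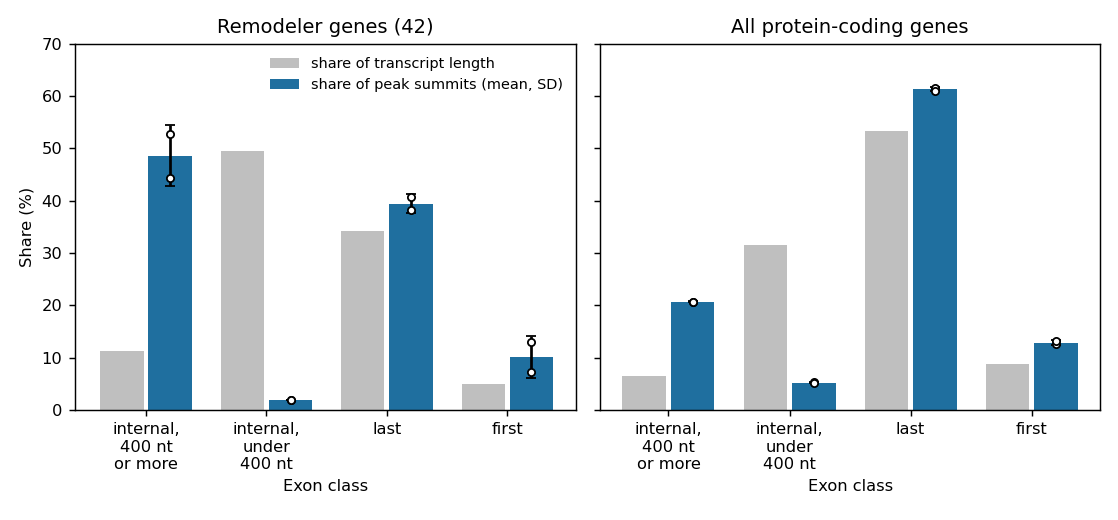
Share of transcript length (grey) and of peak summits (blue, mean of 2 IP replicates with SD, points for each) in % (y axis) by exon class (x axis), in the remodeler genes and in all protein-coding genes. In the remodeler genes internal exons of 400 nt or more made up 11.2% of length and held 48.6% of summits, and shorter internal exons made up 49.6% and held 1.84%.

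The members were counted by whether they had such an exon. Of the 21 members with an internal exon of at least 400 nt, 17 had a summit in both replicates, 1 in a single replicate and 3 in none. Of the 21 members without, 10 had a summit in both, 2 in a single replicate and 9 in none. The 17 include Arid5a and Baz1a, in which no long internal exon had a summit in both replicates. The same split over all protein-coding genes is not given here. Exonic length was not held equal between the 2 sets of members, and its part was not tested. The 3 with none were all BAF subunits, and their long internal exons were exon 4 of Smarca2 (462 nt), exon 4 of Smarca4 (405 nt) and exon 27 of Smarcc2 (426 nt). Long internal exons without a summit in either replicate were also found in Arid5a, Baz2a, Chd6 and Chd7. The longest internal exon without a summit in both replicates was exon 20 of Baz2a, of 632 nt. All 17 longer ones, from exon 2 of Arid3a (654 nt) to exon 15 of Arid2 (2843 nt), had a summit in both, and of the 16 of 400 to 632 nt 2 did; this limit was read from the data. Within the 27 members with a summit in both replicates, 16 of 27 last exons (59.3%) had a summit in both, against 72.6% over all genes with a summit in both.

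The exons that carried peaks were compared between related remodelers. This comparison was chosen after the values had been seen and was not tested. Proteins were aligned in pairs, and for each exon with a summit in its coding part in both replicates the exon of the paralogue that took most of its codons was looked up. Each pair of genes was counted in both directions. In 30 of 43 such comparisons the paralogue's exon had a summit in its coding part in both replicates too. Of the 30, 24 (of 27 comparisons) were among Chd6 to Chd9, 4 of 4 in Arid1a and Arid1b, and 2 of 3 in Arid4a and Arid4b. None of the 5 comparisons of Baz genes, of the 3 of Arid3 and Arid5 genes and of the 1 of Chd1 with Chd2 was among them. Summits outside the coding part did not count, such as both of Chd2 exon 39, past the stop codon. The replicate 1 summit of Chd9 exon 3, before the start codon, was left out too. All 30 were among the 38 comparisons whose aligned exon had 400 nt or more, and in none of the other 5 did the shorter exon have a summit in both. Of all long internal exons of members 57.6% had a summit in both replicates, so the length of the exon and the relation between the genes cannot be told apart here. The Chd6 to Chd9 proteins had 50.8 to 56.7% identical residues in the aligned part. Their aligned exons 31, 31, 32 and 32 (1572, 669, 717 and 906 nt) all had peaks in both replicates, as did the last exons of all 4 at the stop codon. The windows around the summits of these exons follow, with capitals as above, on GRCm38.
Chd6, exon 31, upstream peak, chr2:160966518-160966578, minus strand: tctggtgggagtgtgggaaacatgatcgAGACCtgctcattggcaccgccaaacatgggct
Chd6, exon 31, downstream peak, chr2:160965405-160965465, minus strand: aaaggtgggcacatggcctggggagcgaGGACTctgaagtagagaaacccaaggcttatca
Chd7, exon 31, chr4:8854994-8855054, plus strand: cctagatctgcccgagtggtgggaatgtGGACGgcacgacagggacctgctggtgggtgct
Chd8, exon 32, summit of replicate 1, chr14:52205221-52205281, minus strand: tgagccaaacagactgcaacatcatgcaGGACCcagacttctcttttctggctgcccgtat
Chd8, exon 32, summit of replicate 2, chr14:52204957-52205017, minus strand: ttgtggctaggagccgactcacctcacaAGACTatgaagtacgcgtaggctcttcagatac
Chd9, exon 32, chr8:91033539-91033599, plus strand: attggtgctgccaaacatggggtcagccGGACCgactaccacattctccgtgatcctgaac
In the codon numbering of Chd7, the summits of Chd7 were at codons 2083 and 2084, those of the upstream Chd6 peak at 2089 and 2086, those of Chd9 at 2097 in both replicates and that of Chd8 in replicate 1 at 2100. The Chd8 summit of replicate 2 was apart from these, at 2184, and so was the downstream Chd6 peak, at 2199 in replicate 2 and with no aligned codon in replicate 1. The GGAC nearest to these summits was not at the same aligned codon. It was at 2084 in Chd7, 2102 in Chd9, 2109 and 2205 in Chd8 (replicates 1 and 2) and 2195 at the downstream Chd6 peak. Chd6 had none within 200 nt of the upstream summits and AGACC 1 and 8 nt from them. The GGACG of the Chd7 window is no DRACH, and the nearest DRACH lay 17 and 15 nt from the Chd7 summits of replicates 1 and 2.

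**Figure D5:**
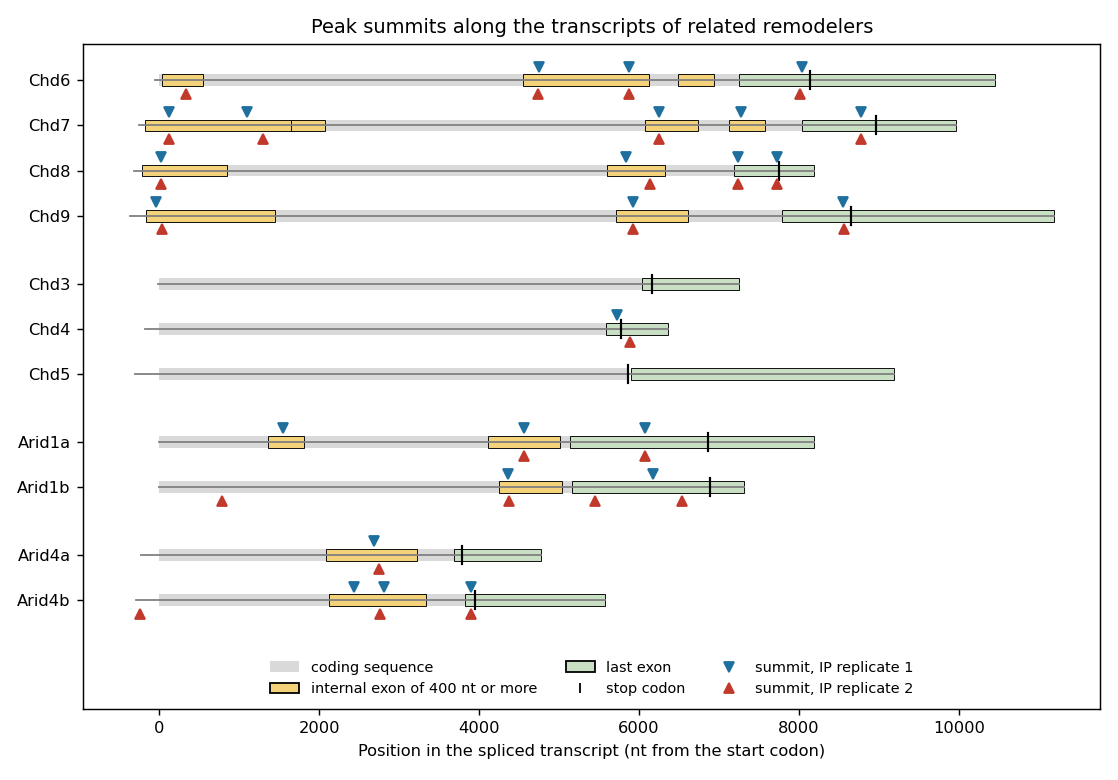
Peak summits along the spliced transcripts of related remodelers, in nt from the start codon (x axis), with downward triangles for IP replicate 1 and upward triangles for replicate 2. Yellow boxes are internal exons of 400 nt or more, green boxes last exons and the tick the stop codon; Chd6 to Chd9 had peaks in the aligned exon 31 or 32 and at the stop codon, and Chd3 and Chd5 had none.

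Among the Arid paralogues, Arid1a and Arid1b, 59.7% identical, both had summits in exons 18 and 20 in both replicates, and Arid4a and Arid4b, 48.6% identical, both in exon 20. Other pairs differed. Exon 2 of Arid3a had a summit in both replicates, the aligned exon of Arid3b in replicate 1 only and that of Arid3c in neither. The last exon of Arid5a had coding summits in both replicates and that of Arid5b in replicate 2 only. Chd1 and Chd2, at 63.7% identity, had summits at the stop codon and in the 3′ UTR respectively, though the peaks of both covered the stop codon. The last exon of Arid4b was marked where that of Arid4a was not. Exon 26 of Baz2b (656 nt) had a peak in both replicates and the aligned exon 20 of Baz2a (632 nt) had none. Chd3, Chd4 and Chd5 were the most alike of the CHD proteins, at 72.9 to 74.3%, and had no internal exon of 400 nt, with 287, 242 and 239 nt for the longest of each. Smarca1 and Smarca5 were the most alike of the pairs aligned, at 81.3%, and only Smarca5 had a peak, in its 5′ UTR.

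A small set of members was marked near the first base of the chosen transcript. Smarca5, Smarcb1, Smarcd2 and Baz1b had summits within 150 nt of it in both replicates, Baz2b did in replicate 1 alone (in an exon of Gm13620 as well) and Arid3a and Arid4b did in replicate 2 alone. Of the placed summits of members, 4 of 55 and 6 of 54 lay within 150 nt (7.27% and 11.1%), against 8.74% and 9.17% over all genes. Within 100 nt there were 3 of 55 and 5 of 54 (5.45% and 9.26%), against 5.22% and 5.42%. The shares were thus not set apart from the background, and they rest on few summits and were not tested. m6A antibodies also bind the cap-adjacent m6Am, and the peak lists cannot tell it from m6A. This count was chosen after the values had been seen.

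The motif was common under the members' peaks. In replicate 1, 34 of 55 summits had GGAC within 50 nt (exact interval 47.7 to 74.6%), and in replicate 2 it was 32 of 54, or 60.5% ± 1.81 (SD, n = 2), against 56.8% ± 0.197 over all genes. Of all positions in the members' transcripts, 34.7% had GGAC within 50 nt. Only the sense strand was searched, after splicing. Any DRACH lay within 50 nt of 96.3% ± 2.64 of the members' summits, against 93.9% ± 0.0308. The share of all transcript positions with a DRACH that near is not given here, so this value by itself shows no enrichment. The peaks shown above by a DRACH had no GGAC within that distance of the summit shown, in Smarcb1, Baz1b, Chd9 exon 40, the upstream peak of Chd6 exon 31 and the replicate 2 summit of Chd8 exon 32.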

How the data were processed

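m6A meRIP-seq peak lists of 2 IP replicates were used. The authors aligned reads to GRCm38 (mm10) with HISAT2 and called peaks in each replicate with MACS2 2.1.1.20160309 (nomodel); the threshold, genome size and control library are not given in the sources used here. The deposited fold enrichment is a ratio of IP signal to local background at the summit, and the deposited −log10 p-value and −log10 q-value belong to the same position. The deposited score restates −log10 q as an integer and was not used further. The deposited peak start, end and summit offset gave positions, counted from 1 here. MACS2 extends reads along the genome without regard to introns, which can move a summit off a short exon.

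Summits were joined to exons of the GENCODE M21 basic set and placed on the transcript with the longest coding sequence of each gene. IP reads and background were computed from fold and p-value under the formulas of MACS2, with whole IP reads matched in 100% of peaks (within 0.001 in −log10 p). These steps were tested on simulated data. The lists carry no strand. Proteins translated from the chosen transcripts were aligned with Biopython 1.88 (BLOSUM62, gap scores −11 and −1, free end gaps). Python 3.11.15, pandas 2.3.3 and scipy 1.17.1 were used.

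Shares are given per replicate with exact Clopper-Pearson 95% intervals and as mean ± SD over the 2 replicates. No test between groups was possible with a single group, and members were not tested against other genes. Members, gene lists and the rule for named genes were chosen with earlier results of these data known. By that rule full values were given for the 6 members with the most peak pairs, the most significant pair of each complex, the 5 pairs of highest fold over at least 5 control reads, and members with a summit in 1 replicate or none; values of further members were added for completeness. Alternatives tried were other thresholds, windows, overlaps, annotation sets and each replicate alone. The input libraries and read-level data were not analysed here.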

Additional observations from a re-analysis of the deposited data

How the results depend on the processing

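The same values over all genes were computed under other thresholds for the count in both replicates only. With peaks of at least 4-fold only, members with a summit in both replicates fell from 27 to 15 and those with a summit in at least 1 from 30 to 18, against 16.9% of all protein-coding genes in both, and the share in long internal exons was 32.9% in place of 48.6%. At a −log10 q of at least 5, members with a summit in both were 23 (all genes 28.9%), the overlap between replicates was 84.5% and the median fold 3.997 in place of 3.54. Windows of 400 and 100 nt gave 25.7% and 13.8% of summits at the stop codon. GGAC lay within 100 nt of 74.3% and within 25 nt of 38.5% of summits, and DRACH within 50 nt of 96.3%. Overlap with the other replicate was 76.1% when 50% of both peaks had to overlap and 69.7% for summits within 100 bp. With either replicate alone, members with a summit were 28 to 29, the stop codon share 18.5 to 21.8%, the long internal exon share 44.4 to 52.7%, the GGAC share 59.3 to 61.8%, the overlap 81.5 to 81.8% and the median fold 3.28 to 3.80. The other alternatives left counts within 1.5 times and shares within 1 SD. No paired analysis was possible because the numbers join IP to input samples, and only IP peak lists were analysed. The depth of the libraries is unknown, so a missing peak sets no upper limit on methylation.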

Other observations

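Subunits of the same complexes that the symbol rule does not reach were counted from a list drawn up by complex. Of these 67 genes, 36 (53.7%) had a summit in an exon in both replicates, 7 in a single replicate and 24 in none, beside 30.9% of all protein-coding genes. All 5 ISWI partners did, and Bptf, the reader subunit of NURF, and Cecr2 had 5 matched peaks each. In INO80, SRCAP and TIP60-p400 it was 13 of 23, with 3 matched peaks each in Yy1, Epc1 and Epc2. In BAF and PBAF it was 8 of 18, with 3 matched peaks each in Bcl7a, Bicral and Bcl11a, and of the 11 NuRD partners of Chd3 to Chd5 it was 3, namely Mbd3, Rbbp7 and Gatad2a. Of 10 further SNF2-type proteins 7 had a summit in both replicates, with 3 matched peaks in Ercc6, the Cockayne syndrome ATPase.

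Summits in introns of the remodeler genes numbered 12 in each replicate, in 8 genes each, and 2 and 5 of them were in peaks that overlapped an exon. Chd9 had 3 in each replicate, of which 1 in replicate 1 and 2 in replicate 2 lay in exons of the gene Gm6658. The strongest of these in Chd9 was 15.1-fold in replicate 2 and 8.01-fold in replicate 1. The intronic summits of Smarcd3, at 7.88-fold and 6.61-fold, lay in exons of the neighbouring gene Chpf2, and Smarcd3 had no summit in its own exons.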
